A study of Mus musculus with 9 samples.

Results

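The 34 genes described here encode proteins that carry, spread or restrain the signal of the T cell receptor: 7 kinases, 10 adaptors, 4 effectors that act on phospholipids and small GTPases, 2 proteins of the NF-kB branch, 8 restraints and 3 NFAT transcription factors. They were taken by name, from 21631 protein-coding genes on chromosomes 1 to 19 and X, and all 34 were found. For each gene, read pairs were summed over the listed interactions whose anchor midpoints lay at least 10 kb apart and that had an anchor on the gene body or within 5 kb of it. HiChIP ligates DNA ends that lie close together in the nucleus and then enriches the fragments bound by a chosen protein, so a read pair joins both ends of a chromatin contact. The assay was run on CD4+ CD8+ (double-positive) thymocytes, isolated by sorting, from C57BL/6J mice (BL6) and NOD/ShiLtJ mice (NOD), and from (NOD/ShiLtJ X C57BL/6) F1 mice. The antibodies were against Smc1, a subunit of the cohesin ring that holds chromatin loops, or against H3K27ac, an acetylation mark of active promoters and enhancers. Each parental strain had 2 Smc1 libraries, labelled as technical replicates of 1 biological replicate, and 2 H3K27ac libraries, labelled as biological replicates. The F1 cross had 1 Smc1 library. The sample titles of the H3K27ac libraries name Smc1, so every H3K27ac value rests on the antibody field of the labels. Age and sex are not given in the sources used here.

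When the T cell receptor meets its ligand, Lck phosphorylates the CD3 chains, Zap70 docks there, and Zap70 phosphorylates the scaffolds Lat and Slp76 (encoded by Lcp2). Plcg1, Tec family kinases, Vav1 and Ras exchange factors gather on that scaffold and pass the signal to calcium and NFAT, to Ras, and through Prkcq, Bcl10 and Malt1 to NF-kB. In double-positive thymocytes the strength of this signal decides between death by neglect, positive selection and negative selection, and phosphatases, ubiquitin ligases and diacylglycerol kinases hold it down. Contacts measured by HiChIP are positions of DNA and are not levels of RNA or protein.

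The Smc1 libraries held between 1484554 and 2620662 used read pairs in the parental strains, and the H3K27ac libraries between 381010 and 1203808. The H3K27ac libraries BL6 1 and NOD 1 stood apart from the others: 1.78% and 1.28% of their read pairs lay on chromosome 17, against 4.97% in BL6 2 and 4.80% in NOD 2, and their shares on chromosomes 16, 18 and 19 were low as well. Chromosome 10, with Fyn, Dgka and Tespa1, held 2.97% in both, against 5.43% and 5.8%. Chromosomes 1, 4, 5, 6, 7, 9 and 11 held larger shares in both. Chromosome 7, with Lat, held 9.80% and 11.5%, against 5.96% and 5.86% in BL6 2 and NOD 2. Among the Smc1 libraries NOD 2 was the lowest on chromosome 17, with 2.43% against 3.77% to 4.13%. Cblb (chromosome 16), Vav1 and Sos1 (chromosome 17), and Malt1 and Nfatc1 (chromosome 18) lie on the chromosomes with low shares too. Lck, Zap70, Nck2, Ptprc, Sh2d1b1, Txk, Tec, Ptpn6, Lat, Csk, Nck1, Cbl, Ubash3b, Lcp2 and Grb2 lie on those with larger shares. The part of these shares in the values below was not tested. Levels are given below as read pairs per 1000000 used read pairs (CPM) over a gene's window, and between genes as CPM per 10 kb of window. Values for 4 libraries are always in the order BL6 1, BL6 2, NOD 1, NOD 2. In these bulk samples, fewer cells with a contact and a weaker contact in each cell cannot be told apart.

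Contacts were listed at all 34 genes, and most of the genes lay above the middle of the genome. The median gene of the 34 had 11.4 CPM per 10 kb in Smc1 and 17.2 in H3K27ac, against 9.61 and 11.6 over all 21631 genes. In Smc1, 25 of the 34 lay above the all-gene median, and in H3K27ac 26 did. The scaffold gene Lat was at the top for both antibodies, with 23.6 ± 11.7 CPM per 10 kb in Smc1 and 31.6 ± 20.8 in H3K27ac (SD, n = 4 libraries each). In Smc1, Csk (21.4), Grap2 (20.1), Txk (19.1), Ptprc (17.8), Sh2d2a (17), Rasgrp1 (15.3) and Nfatc1 (15.2) followed. In H3K27ac the order below Lat was Lck (30.5), Nfatc1 (29.1), Csk (27.6), Zap70 (26.5), Sh2d2a (26.3), Grb2 (24.1) and Grap2 (23.4). The SDs of neighbours in both orders overlap, so these ranks do not separate them. The Lat window of 15.9 kb is mostly flank, as the gene spans 5.88 kb, and it overlaps another gene, Spns1. The best-filled 5 kb step of this window lay 5 kb upstream of the Lat start site, outside the gene. That step held 60.2% of the anchored read pairs in Smc1 and 44.4% in H3K27ac, against 9.48% and 17.0% at the start site. Other windows overlap further genes as well, among them those of Lck (Fam167b), Plcg1 (Zhx3), Sh2d2a (Prcc), Dgka (Pmel and Pym1) and Nfatc3 (Dus2 and Esrp2). Read pairs anchored on such genes can enter the values of these windows.

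**Figure D1:**
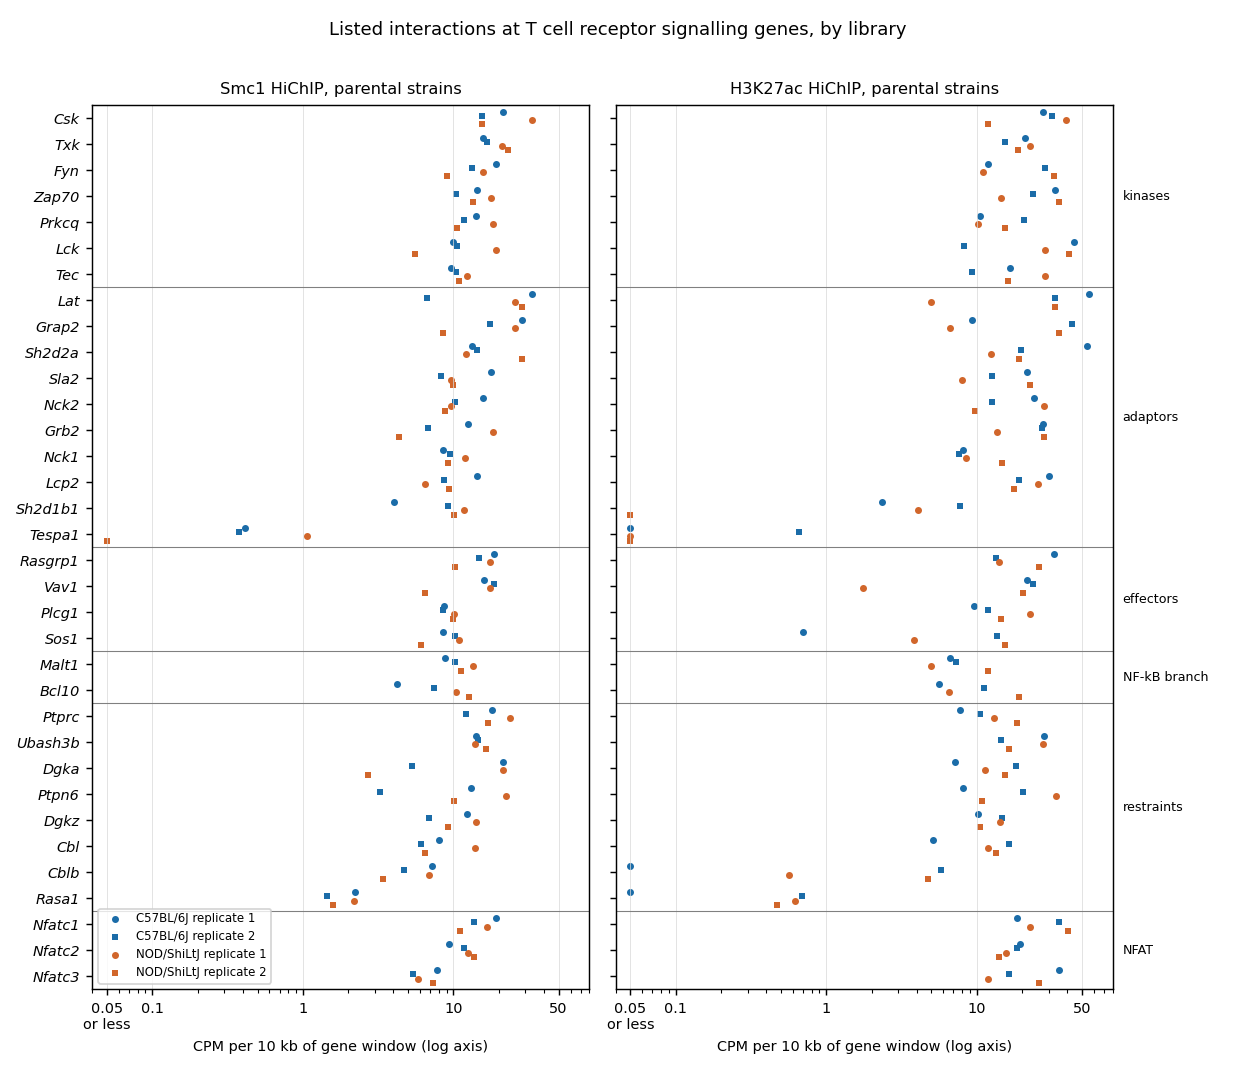
Read pairs in CPM per 10 kb of gene window (x axis, log scale) for each of the 34 genes (y axis, grouped by role), with 1 point for each parental library; the left panel is Smc1 and the right panel H3K27ac. Most genes lie near 10 CPM per 10 kb in both panels, while Tespa1 and Rasa1 lie far to the left, and the H3K27ac points of Cblb, Vav1 and Sos1 spread widely.

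Among the kinases, Lck, the Src family kinase that starts the signal (chromosome 4, 129548344 to 129573641), had 35.3, 37.4, 67.9 and 19.5 CPM in Smc1 and 156, 29.1, 99.7 and 145 in H3K27ac. The H3K27ac library BL6 2 was thus the exception, at the level of the Smc1 libraries. Zap70 (chromosome 1, 36761798 to 36782821) had 44.7, 32.4, 55.3 and 41.8 CPM in Smc1 and 102, 73.1, 44.6 and 108 in H3K27ac. Csk, which switches Lck off by phosphorylating its tail (chromosome 9, 57626646 to 57653631), had 79.0, 57.2, 122.6 and 57.3 CPM in Smc1 and 102, 117, 144 and 44.2 in H3K27ac, so its antibody groups overlapped. Fyn, the other Src family kinase of the receptor, had the highest mean CPM of the 34 genes for both antibodies over its window of 206 kb, with 393, 275, 322 and 186 CPM in Smc1 and 245, 585, 226 and 667 in H3K27ac. Its low H3K27ac libraries were those with the low share on chromosome 10. Txk and Tec, kinases that activate phospholipase C, are neighbours with 2.73 kb between them, and 34, 25, 25 and 8 Smc1 read pairs counted for both genes. Prkcq, which links the receptor to NF-kB, had between 146 and 256 CPM in Smc1 and between 142 and 287 in H3K27ac.

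Among the adaptors, Lat (chromosome 7, 126363827 to 126369705) had 53.2, 10.7, 40.9 and 45.1 CPM in Smc1 and 88.5, 52.3, 7.87 and 52.2 in H3K27ac, so 1 library of each antibody was far below the other 3. Grap2, which bridges Lat to Slp76, had 260, 158, 233 and 77.5 CPM in Smc1 and 83.9, 386, 60.4 and 315 in H3K27ac. Its low H3K27ac libraries were BL6 1 and NOD 1, in which chromosome 15, where Grap2 lies, held 3.6% and 2.92% of read pairs against 4.64% and 4.48% in BL6 2 and NOD 2. Sh2d2a, the adaptor TSAd that binds Lck, had 25.3, 27.1, 22.8 and 53.9 CPM in Smc1 and 102, 37.4, 23.6 and 36.2 in H3K27ac. Grb2, which brings the Ras exchange factor Sos1 to Lat, had 92.6, 50.8, 137 and 32.3 CPM in Smc1 and 206, 203, 102 and 207 in H3K27ac. Nck1 and Nck2, adaptors to the actin skeleton, had 52.6 to 73.3 and 119 to 213 CPM in Smc1. Sla2, which dampens receptor signalling, had 19.1 to 41.1 CPM in Smc1 and 18.4 to 52.2 in H3K27ac.

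Tespa1, a thymocyte protein needed for positive selection, was almost without listed contacts: it had 2.11, 1.91, 5.41 and 0 CPM in Smc1, and in H3K27ac it was listed in BL6 2 alone, at 3.32 CPM. Its surroundings were as sparse, with 0.464 CPM per 10 kb in Smc1 and 0.0201 in H3K27ac over the 250 kb on each side. Rasa1, a GTPase-activating protein that switches Ras off, also lay in a sparse stretch, with 2.92 CPM per 10 kb in Smc1 and 0.369 in H3K27ac around it. Around Cblb the values were 4.94 and 0.718. At the other genes the surroundings held at least 6.48 CPM per 10 kb in Smc1. The low levels of these 3 genes were thus shared with the DNA beside them.

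Among the effectors, Plcg1, the phospholipase that starts the calcium signal, had 47.4, 46.2, 55.3 and 53.9 CPM in Smc1, a narrow spread between those libraries. Vav1, an exchange factor for Rac, had 96.3, 111.4, 105 and 39.1 CPM in Smc1 and 129, 141, 10.5 and 123 in H3K27ac. Rasgrp1, the exchange factor that activates Ras in thymocytes (chromosome 2, 117279983 to 117342877), had 136, 107, 128 and 74.8 CPM in Smc1 and 238, 97.2, 102 and 189 in H3K27ac. Sos1 had 59.3 to 105 CPM in Smc1, and 6.80, 132, 36.7 and 149 CPM in H3K27ac, low in the libraries with the uneven chromosome shares. Bcl10 and Malt1, which assemble the complex that activates NF-kB, had 8.42 to 25.6 and 51.1 to 78.2 CPM in Smc1.

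Among the restraints, Ptprc, the phosphatase CD45 that sets the activity of Lck, had 222, 150, 292 and 209 CPM in Smc1 and 95.3, 129, 160 and 227 in H3K27ac. Ubash3b, a phosphatase that acts on Zap70, had the narrowest relative spread of the 34 genes in Smc1, with 229, 235, 223 and 263 CPM. Dgka and Dgkz, which remove diacylglycerol, differed in steadiness: Dgka ranged from 9.43 to 74.5 CPM in Smc1 and Dgkz from 37.0 to 76.4. Ptpn6, the phosphatase SHP-1, ranged from 9.16 to 62.5 CPM in Smc1. The ubiquitin ligases Cbl and Cblb had 61.4 to 141 and 64.0 to 135 CPM in Smc1. In H3K27ac, Cblb had no listed read pair in BL6 1, 10.5 CPM in NOD 1, and 109 and 88.4 in BL6 2 and NOD 2. Of the NFAT genes, Nfatc1 had 226, 160, 197 and 130 CPM in Smc1 and 215, 409, 262 and 472 in H3K27ac. Nfatc2 had 127, 158, 169 and 186 CPM in Smc1 and 263, 249, 210 and 191 in H3K27ac. Nfatc3 had 63.7, 44.3, 47.5 and 60.0 CPM in Smc1 and 286, 134, 97.1 and 213 in H3K27ac.

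The next comparison asked whether cohesin contacts at these genes differ between NOD, a strain prone to autoimmune diabetes, and BL6. For both antibodies the NOD libraries were mapped on the NOD genome and the BL6 libraries on the BL6 genome. In every comparison of the parental strains here and below, strain and mapping genome thus cannot be told apart. Of the 33 genes tested none passed an adjusted p of 0.05 in either direction (edgeR quasi-likelihood test, Benjamini-Hochberg adjustment over 18053 genes), with a background of 0.188% of all genes tested. The background split into 0.166% higher and 0.0222% lower in NOD. None of the 33 reached even an unadjusted p of 0.05 (background 3.61%), DESeq2 called 0, and the lowest adjusted p was 0.999. Tespa1 did not pass the filter on low counts. Since the Smc1 libraries of a strain are technical replicates, these p-values measure technical spread and not that between mice. The fitted change was above 0 at 22 genes and below 0 at 11, with a median of 0.25 on the log2 scale against 0.01 over all genes. That median depended on single libraries. It was 0.0015 without NOD 1, 0.06 without BL6 2, 0.26 without BL6 1 and 0.28 without NOD 2, against -0.02 to 0.02 over all genes.

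Groups of 2 libraries that did not overlap were higher in NOD at 7 of the 33 genes, against 15.5% of all genes tested, and lower at 1, against 17.8%. The 7 were Bcl10, Sh2d1b1, Txk, Malt1, Nfatc2, Plcg1 and Tec, of which Txk and Tec share read pairs. Bcl10 had the largest fitted difference among them: 8.42 and 14.9 CPM in BL6 and 21.0 and 25.6 in NOD, a log2 fold of 1.03 ± 0.63 (SE). Sh2d1b1, an adaptor best known from natural killer cells, had 7.90 and 17.9 CPM in BL6 and 22.8 and 19.5 in NOD (0.73 ± 0.65). Txk had 105 and 112 CPM in BL6 and 140 and 155 in NOD (0.49 ± 0.27). Malt1, the partner of Bcl10, had 51.1 and 59.5 CPM in BL6 and 78.2 and 65.3 in NOD (0.41 ± 0.34). Nck2 was the gene lower in NOD, with 213 and 139 CPM in BL6 against 131 and 119 (-0.45 ± 0.28). Each of these differences was within 2 of its standard errors. In simulated data 6% of 2-fold and 66% of 4-fold differences were called at this depth, so differences of the size seen at these genes were rarely detectable. Without NOD 1 the edgeR fit keeps 1 NOD library, NOD 2, which is assumed to vary like the BL6 libraries. The log2 fold was then -1.29 at both Grap2 and Vav1. NOD 2 held the lowest Smc1 share on both of their chromosomes. It held 3.72% on chromosome 15, with Grap2, against 4.28% to 4.63% in the other parental libraries. On chromosome 17, with Vav1, it held 2.43% against 3.77% to 4.13%. The part of these shares in that fit was not tested. In that fit 230 genes were called higher and 575 lower over the whole table (4.31%), against 30 and 4 with all 4 libraries.

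For H3K27ac, 0 of 31 genes passed the same edgeR test between strains, as did 0 of 13884 over the whole table (background 0.0%). At an unadjusted p of 0.05 the counts were 0 of the 31 and 106 of all genes (background 0.763%). With DESeq2 they were 0 of the 34 genes and 20 of all genes at an adjusted p of 0.05. The median fitted change was 0.01, with 16 genes above 0 and 15 below. The libraries did not overlap at 3 genes that were higher in NOD (background 11.1%) and at 4 that were lower (background 10.3%). Plcg1 had 52.2 and 64.8 CPM in BL6 and 123 and 78.4 in NOD (log2 fold 0.75 ± 0.67). Ptprc had 95.3 and 129 CPM in BL6 and 160 and 227 in NOD (0.74 ± 0.56). Nck1 had 49.9 and 47.3 CPM in BL6 and 52.5 and 90.4 in NOD (0.51 ± 0.69). At the lower 4 the fitted folds were -1.26 ± 0.99 for Lat, -1.24 ± 0.84 for Sh2d2a, -1.08 ± 1.02 for Vav1 and -0.39 ± 0.49 for Nfatc2. At Vav1 the low value was in NOD 1 alone, with 10.5 CPM against 123 in NOD 2 and 129 and 141 in BL6. Both BL6 1 and NOD 1 held few read pairs on chromosome 17 (1.78% and 1.28%), and the part of that share was not tested. In simulated data edgeR called 0% of 16-fold differences here, so a difference between strains was not detectable with it at this depth.

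Plcg1 was the gene whose libraries were higher in NOD for both antibodies. Nfatc2 was higher in NOD in Smc1 and lower in H3K27ac, yet its interaction of strain and antibody was -0.73 ± 0.52 on the log2 scale with an adjusted p of 1.00 (edgeR). No interaction passed, among the 33 genes or among all 18100 tested (background 0.0%); an unadjusted p under 0.05 was found at 0 of the 33 and at 335 of all genes (background 1.85%), and DESeq2 called none of either.

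**Figure D2:**
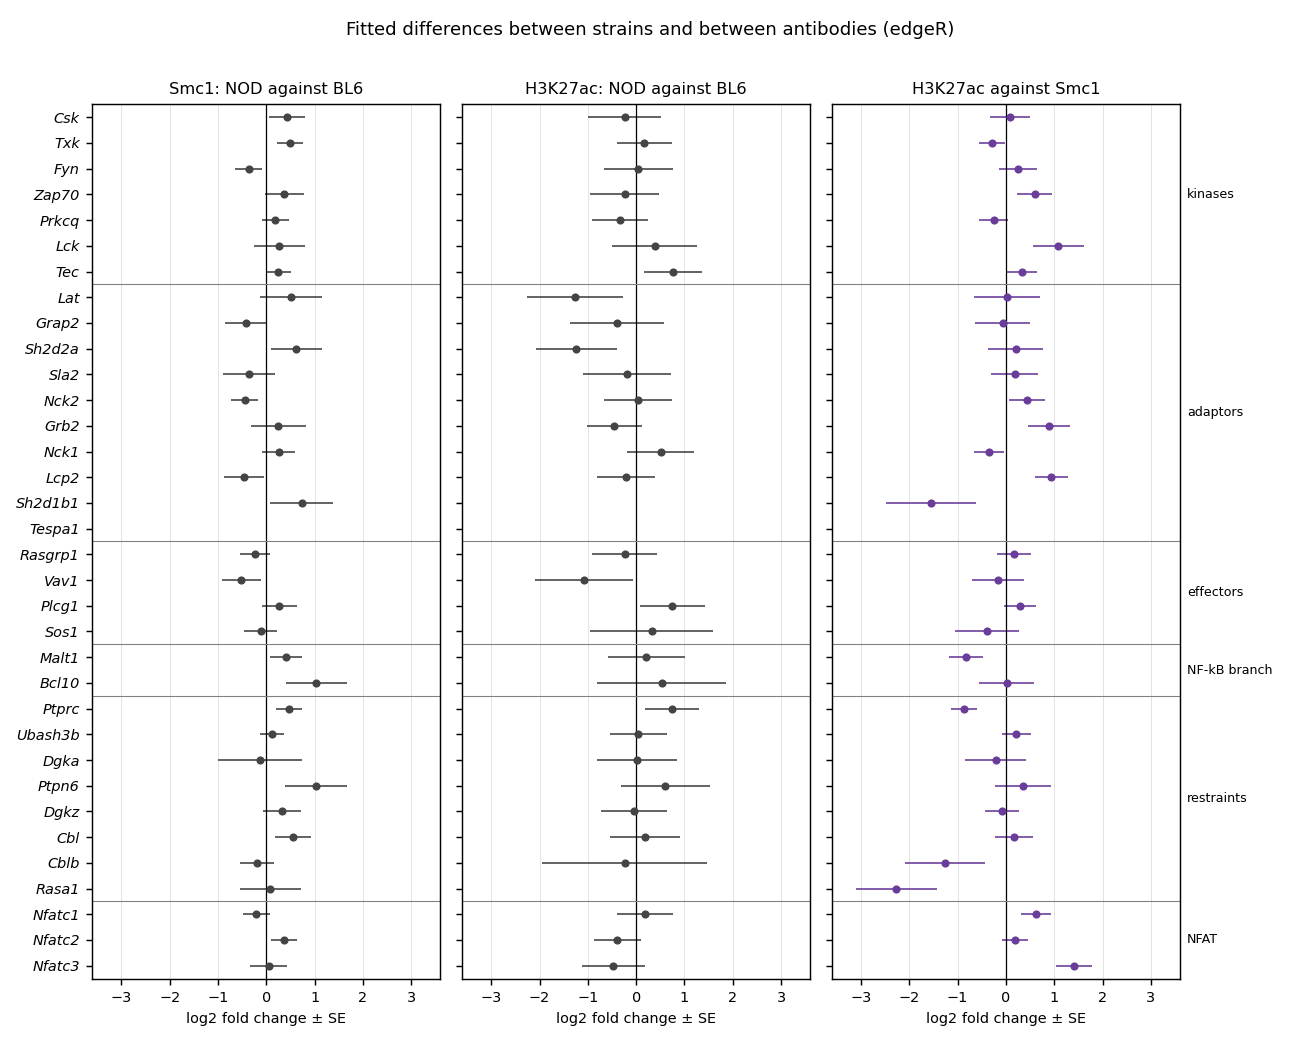
Fitted log2 fold changes with standard errors (x axis) for each gene (y axis, grouped by role) in 3 panels: NOD against BL6 in Smc1, NOD against BL6 in H3K27ac, and H3K27ac against Smc1 over both strains; a gene without a point did not pass the filter on low counts. Nearly all strain differences lie within 2 standard errors of 0, and the clearest antibody difference is that of Nfatc3, at 1.40 ± 0.37.

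Set against Smc1 over both strains, H3K27ac contacts were relatively rich at Nfatc3, Lck, Lcp2, Grb2 and Nfatc1 and poor at Rasa1, Sh2d1b1, Cblb, Ptprc and Malt1, but none of the 33 genes passed the edgeR test, with a background of 2.14% of 18100 genes. An unadjusted p under 0.05 was found at 5 of the 33, against 16.0% of all genes. The Smc1 libraries of a strain are technical replicates here too, so p-values between antibodies rest in part on technical spread. Nfatc3, an NFAT factor abundant in double-positive thymocytes, was the nearest, though its window also overlaps Dus2 and Esrp2. Nfatc3 had every H3K27ac library above every Smc1 library, a log2 fold of 1.40 ± 0.37 and an adjusted p of 0.0901 (edgeR). Its adjusted p was between 0.00990 and 0.297 over all alternatives; DESeq2 (0.00990) and scaling per chromosome (0.0217) called it. Ptprc had a log2 fold of -0.86 ± 0.27 and an adjusted p of 0.133, and DESeq2 called it as well (0.0455; range over the alternatives 0.0455 to 0.378). Lcp2, which encodes Slp76, had 79.5, 47.7, 36.1 and 51.9 CPM in Smc1 and 168, 106, 142 and 98.4 in H3K27ac, with no overlap (0.94 ± 0.34, adjusted p = 0.205). Lck (1.09 ± 0.52), Grb2 (0.90 ± 0.43) and Nfatc1 (0.62 ± 0.31) overlapped between antibodies.

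The groups of 4 libraries did not overlap at 3 genes higher in H3K27ac, Nfatc3, Lcp2 and Nfatc2 (background 10.2%), and at 1 lower gene, Rasa1 (background 7.68%). Rasa1 had 18.9, 12.2, 18.6 and 13.5 CPM in Smc1 and 0, 5.81, 5.25 and 4.02 in H3K27ac, from 0, 7, 2 and 2 read pairs (log2 fold -2.27 ± 0.83). Cblb (-1.26 ± 0.83) and Sh2d1b1 (-1.55 ± 0.93) had no listed H3K27ac read pair in 1 library each. Malt1 stood at -0.83 ± 0.35 and reversed to 0.27 when libraries were scaled per chromosome, a change that also moved the median of all genes from -0.08 to 0.23 and the calls over the whole table from 23 higher and 364 lower to 377 and 457. Nfatc1, on the same chromosome, was called higher in H3K27ac under that scaling (1.76, adjusted p = 0.0101 with edgeR).

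Within single strains edgeR called none of the genes (0 of 33 in BL6 and 0 of 33 in NOD; background 0.0% in both; 2 and 0 with an unadjusted p under 0.05, backgrounds 6.75% and 7.82%; DESeq2 called 0 in both). In BL6 the libraries did not overlap at 9 genes higher (background 28.7%) and 4 lower (16.2%) in H3K27ac. In NOD the counts were 8 (27.6%) and 2 (16.7%). Each of these counts was a smaller share of the 33 genes than the background. The calls within strains depended on single H3K27ac libraries. Without BL6 2, 10 of the 33 were called in BL6, among them Nfatc3 (log2 fold 2.13) and Lck (1.82) higher and Ptprc (-1.24) lower; 28.0% of all genes tested were called in that fit. Without BL6 1, Grb2 alone of the 33 was called (1.24), with 6.69% of all genes. Without NOD 2, Nck2 was called higher and Cblb and Vav1 lower in NOD, with 10.6% of all genes. Leaving out 1 of the 2 H3K27ac libraries of a strain assumes that the remaining one varies like the others.

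Where on the gene the contacts were anchored also differed between antibodies at several genes. For the 30 genes with a RefSeq start site, the share of a gene's read pairs with an anchor within 2.5 kb of a start site was computed in each library. Pooled over these genes it was 8.95%, 7.79%, 12.7% and 8.23% in Smc1 and 17.0%, 13.3%, 17.5% and 16.2% in H3K27ac. Over all 17274 genes with a start site the pooled shares were 10.7% to 12.8% in Smc1 and 13.9% to 15.7% in H3K27ac. The gap between antibodies was thus also present over all genes, and whether its size differed at these genes was not tested. Of the 22 genes with at least 10 read pairs in every library, 16 had a higher mean share in H3K27ac (72.7%, against 58.9% of 6716 genes). At 5 of the 22, Fyn, Plcg1, Rasgrp1, Dgka and Nfatc3, every H3K27ac library was above every Smc1 library, against 430 of all 6716 genes (background 6.4%), and at 0 every one was below (background 2.75%).

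Dgka had the widest gap. Its start-site share was 10.6%, 0%, 37.9% and 0% in Smc1 and 72.7%, 46.8%, 86.7% and 51.9% in H3K27ac. At Rasgrp1 it was 20.9%, 13.5%, 13.6% and 10.8% in Smc1 and 21.9%, 51.3%, 28.2% and 42.6% in H3K27ac. At Plcg1 it was 4.44%, 0%, 4.35% and 0% in Smc1 and 21.7%, 24.4%, 6.38% and 41.0% in H3K27ac. Nfatc3 had 4.96% in the Smc1 library BL6 1 and 0% in the other 3, against 13.5%, 22.4%, 27% and 5.66% in H3K27ac. Fyn was the opposite kind of gene: its start site held at most 0.804% of its Smc1 and 5.81% of its H3K27ac read pairs, and the best-filled 5 kb step lay 150 kb inside the gene in Smc1 and 145 kb inside in H3K27ac. With a window of 1 kb around the start site Zap70 took the place of Dgka among the 5 genes (background 9.44%). With 5 kb the genes were Lck, Dgkz and Nfatc3 (background 4.78%), so Nfatc3 was the gene named at all 3 widths.

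**Figure D3:**
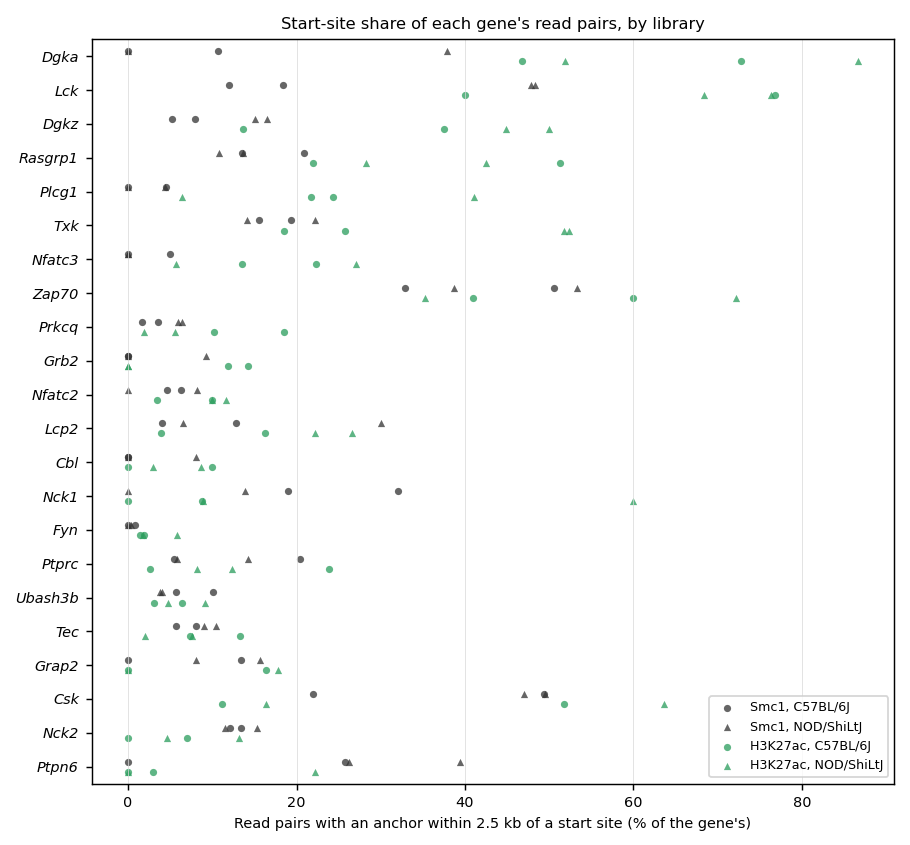
Share of each gene's read pairs that have an anchor within 2.5 kb of a start site (x axis, in %), for the 22 genes with at least 10 read pairs in every library (y axis, sorted by the difference between antibody means); each point is 1 parental library, black for Smc1 and green for H3K27ac. The green points lie to the right of the black ones at Dgka, Rasgrp1, Plcg1, Nfatc3 and Fyn, while at Csk, Nck2 and Ptpn6 they do not.

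Lck has 2 known promoters, a distal one and a proximal one closer to the coding exons, and RefSeq gives start sites 15.3 kb apart. At the upstream site H3K27ac anchors held 79.4, 7.48, 44.6 and 110.5 CPM and Smc1 anchors 1.05, 4.58, 9.02 and 9.43. At the downstream site H3K27ac held 40.8, 4.15, 23.6 and 64.3 CPM and Smc1 3.16, 2.29, 23.4 and 0. In all 4 H3K27ac libraries the upstream site was the higher of the pair, though in BL6 2 with only 9 against 5 read pairs. In NOD 2 the 55 read pairs of the upstream site included all 32 of the downstream one, so these 2 values are not separate. Zap70 has 3 start sites, and the upstream 2 lie 2.72 kb apart, so their windows overlap. The H3K27ac mean was 19.8 CPM at the first, 35.0 at the second and 11.4 at the third, while in Smc1 the third was highest, at 9.82. Txk has a start site 16.2 kb inside the gene, and its Smc1 anchors favoured that inner site, with 15.3, 17.6, 15.6 and 31.7 CPM against 1.05, 4.20, 4.21 and 2.69 at the outer one. Vav1 had no Smc1 read pair at its start site in any library, and 38.6, 7.48, 5.25 and 6.03 CPM in H3K27ac.

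Of the 45 RefSeq promoters of the 30 genes, 10 were covered by H3K27ac anchors in all 4 parental libraries. Those of Zap70, Rasgrp1, Dgka and Nfatc3 and the downstream one of Lck are shown, because the start-site results above turn on these genes, with the upstream Lck promoter, covered in 3 of 4, for comparison. The others covered in all 4, at Ubash3b, Dgkz, Sla2 and both start sites of Txk, are not shown. Each is the 250 bases before the start site from RefSeq (GRCm38.p6), 5′ to 3′ on the gene's strand, with motif matches in capitals. The upstream Lck promoter is chr4:129573642-129573891 (minus strand), the downstream one chr4:129558373-129558622 (minus), Zap70 chr1:36761548-36761797 (plus), Rasgrp1 chr2:117342878-117343127 (minus), Dgka chr10:128745085-128745334 (minus) and Nfatc3 chr8:106058568-106058817 (plus). Smc1 anchors covered the Rasgrp1 stretch in 4 libraries, the downstream Lck and the Dgka stretches in 2, the upstream Lck and the Nfatc3 stretches in 1, and Zap70 in 0. The choice was made with the values known.
Lck, upstream: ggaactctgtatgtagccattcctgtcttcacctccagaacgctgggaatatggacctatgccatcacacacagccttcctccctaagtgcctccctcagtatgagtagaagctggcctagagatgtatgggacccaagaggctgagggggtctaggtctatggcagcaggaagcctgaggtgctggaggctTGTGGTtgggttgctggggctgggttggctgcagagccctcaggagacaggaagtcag
Lck, downstream: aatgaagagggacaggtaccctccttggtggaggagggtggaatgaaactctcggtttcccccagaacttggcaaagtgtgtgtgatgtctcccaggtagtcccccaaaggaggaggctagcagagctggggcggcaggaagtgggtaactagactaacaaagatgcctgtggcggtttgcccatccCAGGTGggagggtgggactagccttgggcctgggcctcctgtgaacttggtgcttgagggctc
Zap70: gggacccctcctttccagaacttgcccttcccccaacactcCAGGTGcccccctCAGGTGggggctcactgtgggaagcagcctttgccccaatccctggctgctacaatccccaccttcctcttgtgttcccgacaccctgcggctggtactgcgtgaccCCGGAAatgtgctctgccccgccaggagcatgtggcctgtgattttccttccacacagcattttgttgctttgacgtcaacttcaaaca
Rasgrp1: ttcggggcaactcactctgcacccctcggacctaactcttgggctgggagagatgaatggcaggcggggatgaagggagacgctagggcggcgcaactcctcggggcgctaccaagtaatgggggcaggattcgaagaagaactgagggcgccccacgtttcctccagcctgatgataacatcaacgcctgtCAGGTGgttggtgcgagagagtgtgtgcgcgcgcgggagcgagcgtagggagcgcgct
Dgka: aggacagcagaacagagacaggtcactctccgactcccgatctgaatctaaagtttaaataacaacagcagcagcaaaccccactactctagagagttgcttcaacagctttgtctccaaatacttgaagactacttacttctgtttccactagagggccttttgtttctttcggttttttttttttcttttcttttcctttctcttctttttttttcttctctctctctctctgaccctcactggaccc
Nfatc3: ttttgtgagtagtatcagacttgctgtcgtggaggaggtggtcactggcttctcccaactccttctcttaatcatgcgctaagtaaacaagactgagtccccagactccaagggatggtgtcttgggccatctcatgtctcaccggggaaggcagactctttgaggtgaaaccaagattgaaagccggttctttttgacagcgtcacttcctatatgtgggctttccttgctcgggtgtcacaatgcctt

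The capitals mark 3 motifs, searched on both strands: TGTGGT, a core of Runx binding sites, CAGGTG, an E-box of the kind bound by E proteins, and CCGGAA, an Ets core. No matches overlapped one another in the stretches shown. The upstream Lck promoter held 1 Runx core and the downstream one 1 E-box, Rasgrp1 held 1 E-box, and Zap70 2 E-boxes and 1 Ets core. Dgka and Nfatc3 held none of the 3 motifs. Over all 45 start sites of the 30 genes, 7 promoters held the Runx core, 12 the E-box and 4 the Ets core. Of 32851 RefSeq promoters of the same length, 14.0% held the Runx core, 17.2% the E-box and 12.0% the Ets core. A match describes letters and not a bound site.

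The median contact span of these genes lay below that of all genes. In the deepest library of each antibody (BL6 2), and over genes with at least 50 read pairs, the median contact span was 355 kb for 27 of the 34 genes against 489 kb for 13267 genes in Smc1. In H3K27ac it was 449 kb for 27 genes against 640 kb for 9531. The most local gene for which the libraries of both antibodies held together was Rasgrp1, with a median span of 139 ± 20.2 kb in Smc1 and 105 ± 8.72 kb in H3K27ac (SD, n = 4 libraries each). Csk (119 ± 14.9 kb in Smc1) and Nck2 (189 ± 21.2 kb) were local too. Ptprc reached farthest with little spread, at 583 ± 31.1 kb in Smc1 and 578 ± 45.6 kb in H3K27ac. At Nfatc2 the span was 349 ± 126 kb in Smc1 and 777 ± 103 kb in H3K27ac, with all H3K27ac libraries above all Smc1 libraries. How often spans separate in this way over all genes was not computed. The all-gene median above was also longer in H3K27ac.

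Single contacts rarely recurred. Counted as pairs of 25 kb bins, only Fyn and Rasgrp1 had pairs listed in all 8 parental libraries, 2 each. The leading Rasgrp1 pair joined the bin with its start site to a bin 100 kb upstream (chromosome 2, 117425001 to 117450000) that holds no protein-coding gene and the lncRNA gene Gm32137. It held 42, 23, 24 and 13 read pairs in Smc1, 14, 21, 6 and 35 in H3K27ac, and 20 and 30 in the F1 library on the BL6 and NOD genomes. The mean level was 13.5 ± 6.32 CPM in Smc1 and 33.8 ± 25.4 in H3K27ac (SD, n = 4 libraries each), and this was the leading pair of the gene for both antibodies. The 5 Rasgrp1 pairs listed in all Smc1 libraries held 37.4% of its Smc1 level, more than at any other of the 34 genes. The leading Fyn pair joined a bin inside the gene to an upstream bin with Tube1 and Ccn6, 350 kb from the first, and held 33, 39, 31 and 10 read pairs in Smc1 and 8, 9, 4 and 9 in H3K27ac.

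A bin pair listed in all 4 parental Smc1 libraries was found at 21 genes. The leading one reached a bin with another protein-coding gene at 16 of them and a bin without one at 4, and lay within the window of Nck2. Ubash3b had the strongest, between a bin inside the gene and a bin 150 kb away without a protein-coding gene, at 24.3 ± 6.75 CPM in Smc1 (62, 69, 28 and 32 read pairs). In H3K27ac the same pair held 14, 14 and 3 read pairs and was not listed in NOD 2. Nfatc1 met its neighbour Atp9b over 125 kb (46, 18, 17 and 24 Smc1 read pairs). The leading Nfatc2 pair, over 175 kb (24, 12, 13 and 14), joined a bin past the 3′ end of Nfatc2 to a bin with Atp9a, a related lipid flippase gene. Neither of these bins overlaps the Nfatc2 gene body, and the near one reaches only its 5 kb flank. Txk met Cnga1 over 100 kb, with 5, 33, 18 and 29 Smc1 read pairs and 3 in a single H3K27ac library. Ptprc met the bin of Atp6v1g3 in all 4 Smc1 libraries, with 20, 3, 11 and 4 read pairs, and was listed with it in no H3K27ac library. Nfatc3 was the reverse: its leading H3K27ac pair, over 350 kb to a bin with Acd and 4 other protein-coding genes, held 2, 7, 5 and 4 read pairs and was listed in none of the 4 parental Smc1 libraries, with 2 read pairs on each genome in the F1 library. These counts are small, interactions under 2 read pairs are not listed, and the H3K27ac libraries are shallower than the parental Smc1 ones. An absent listing is therefore not an absent contact. At 13 of the 34 genes no bin pair was in all 4 parental libraries of either antibody, among them Lck, Lat, Lcp2, Grb2, Malt1, Rasa1 and Tespa1.

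The F1 library, read once on each genome, gave nearly the same levels for both. Of 19 genes with at least 50 read pairs on the higher side, 0 passed a 1.5-fold difference between the genomes (background 1.3%), and the log2 ratios of NOD over BL6 genome, with 5 CPM added, ran from -0.46 at Dgkz to 0.30 at Rasgrp1. Both values come from 1 library, so they are no replicate check. Against the mean of the BL6 libraries on the BL6 genome, 4 of 29 genes were past 1.5-fold (background 26.9%), all lower: Lcp2 (-1.56), Dgka (-1.14), Zap70 (-1.08) and Csk (-0.86). Against the mean of the NOD libraries on the NOD genome, 9 of 29 were (background 26.3%). Fyn (0.86) and Nfatc1 (0.59) were higher, and Ptpn6 (-1.62), Zap70 (-1.24), Csk (-1.15), Txk (-1.01), Dgka (-0.90), Lcp2 (-0.82) and Sh2d2a (-0.71) were lower.

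On both genomes the F1 library lay below all 4 parental Smc1 libraries at 8 of 33 genes (background 20.3%) and above them at 5 (background 20.1%). The 8 were Zap70, Lcp2, Nck1, Csk, Txk, Tec, Sh2d2a and Sh2d1b1, and the 5 were Fyn, Plcg1, Nfatc1, Nfatc2 and Nfatc3. Zap70 had 15.7 and 17.7 CPM in the F1 library, below all 4 parental libraries (32.4 to 55.3). Lcp2 had 18.3 and 22.7 CPM, also below all 4 (36.1 to 79.5), and so had Csk, with 35.3 and 37.9 against 57.2 to 123. These 3 are genes with 12 to 30 read pairs in the F1 library, which held less than any parental Smc1 library, and the part of depth in them was not tested. Fyn, with 461 and 463 CPM, was above all 4 parental libraries (186 to 393). Without a second F1 library these differences have no test.

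**Figure D4:**
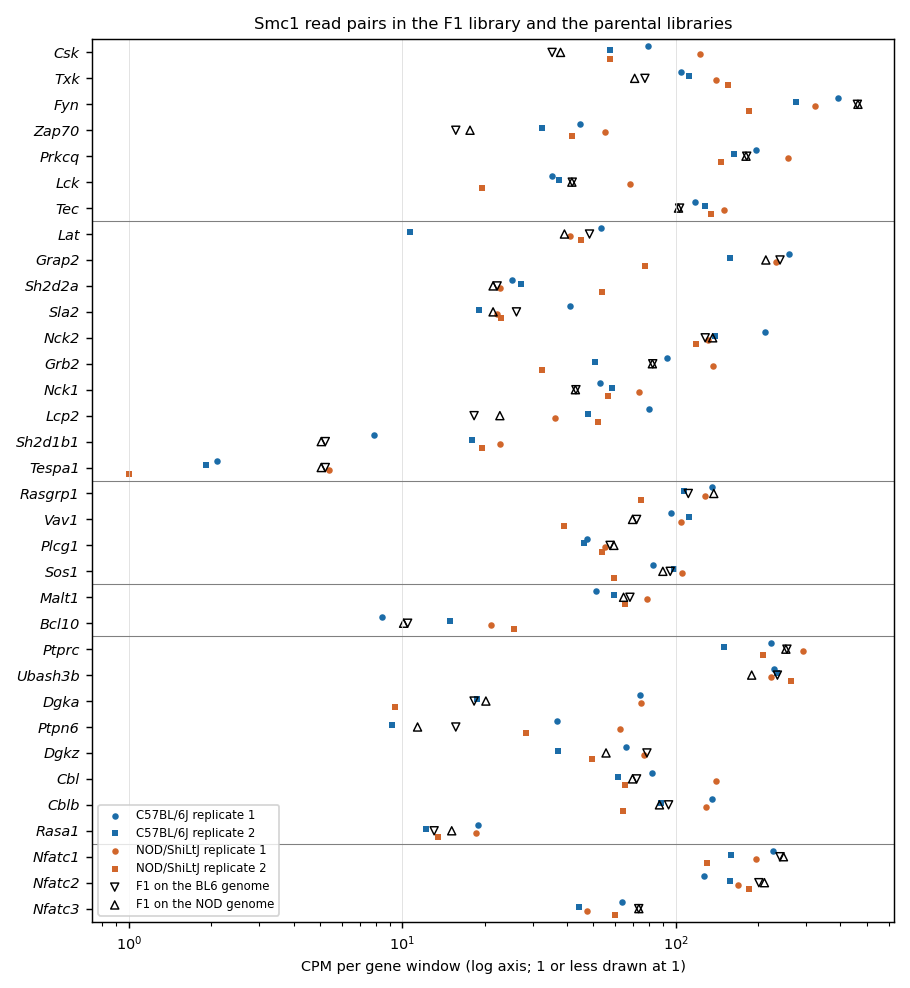
Smc1 read pairs in CPM per gene window (x axis, log scale) for each gene (y axis, grouped by role), with filled points for the 4 parental libraries and open triangles for the F1 library on each genome. The open triangles of most genes nearly coincide; both lie left of all filled points at 8 genes, such as Zap70, Lcp2 and Csk, and right of them at 5, such as Fyn.

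For the wider pathway, 95 further genes were listed. Between strains edgeR called none of them (0 of 94 in Smc1, 0 of 89 in H3K27ac; 2 and 1 with an unadjusted p under 0.05), and DESeq2 called none either. Leaving out either Smc1 library of NOD gave calls among them with edgeR, as it did over all genes. Such a fit keeps 1 NOD library and assumes that it varies like the BL6 libraries, so these calls are not read as a result. Among those with separated libraries the largest Smc1 folds were at Ppp3r1 (1.36 ± 0.72), Ptpn7 (1.25 ± 0.40) and Dok2 (1.07 ± 0.62), higher in NOD, and at Map2k2 (-1.34 ± 0.59), Nras (-1.19 ± 0.57) and Akt1 (-0.96 ± 0.54), lower. In H3K27ac, Junb (2.28 ± 1.97), Cd3g (1.55 ± 0.91) and Cd2 (1.5 ± 0.89) were higher in NOD and Egr2 (-3.28 ± 1.16), Rasgrp2 (-1.08 ± 0.99) and Lax1 (-0.93 ± 0.83) lower. Egr2, an early response gene of receptor signalling, had 52.2 and 39.0 CPM in BL6 and 5.25 and 4.02 in NOD, with an unadjusted p of 0.0281 that did not survive adjustment.

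Between antibodies 2 of 94 pathway genes rose in H3K27ac and 0 fell (edgeR; background 0.127% higher and 2.01% lower), and DESeq2 called 7 higher and 1 lower, with 1.61% and 6.08% of all genes. Cd6, a receptor that tunes T cell signalling, had 65.8, 45.8, 79.4 and 35.7 CPM in Smc1 and 313, 253, 236 and 446 in H3K27ac (log2 fold 2.14 ± 0.32, adjusted p = 0.00839). Cd5, its neighbour and an inhibitor of receptor signalling, had 77.4, 41.2, 57.7 and 31.7 CPM in Smc1 and 150, 179, 181 and 333 in H3K27ac (1.68 ± 0.37, adjusted p = 0.0473). The 2 genes lie side by side, so they are not independent. Their p-values too rest in part on the technical replicates of Smc1. Leaving out Smc1 BL6 2 ended the call of Cd6 (adjusted p = 0.0527), and leaving out any 1 of 7 of the 8 libraries ended that of Cd5 (0.0529 to 0.188); the replicate block also ended it (0.0754). With contacts counted at the gene ends in place of the whole body, neither was called (0.105 for Cd6 and 0.187 for Cd5). Cd4 (2.42 ± 0.66, adjusted p = 0.0975) and Jund (2.31 ± 0.59, 0.0803) were higher, and Themis, a regulator of positive selection, was lower in H3K27ac (-2.5 ± 0.59, 0.0616), none of them called.

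Markers of the sorted cells were checked by contacts. All 14 double-positive thymocyte markers had listed contacts in both antibodies. So had every marker of the other lists given below except the erythroid one, so being listed did not set the sorted cells apart. Summed levels of the B cell list ran from 1059 to 1249 CPM in Smc1 and 1245 to 2092 in H3K27ac. Those of the double-positive list ran from 529 to 1861 and 1543 to 3352. The sums cover 7 B cell and 14 double-positive genes, so they do not rank the lists. Per 10 kb of window, the median B cell marker had 18.02 CPM in Smc1 and 23.98 in H3K27ac. The median double-positive marker had 9.54 and 21.05. In Smc1 every other list but the erythroid one was also above the double-positive list. In H3K27ac no other list was. Of the 5 erythroid markers, Gata1 and Alas2 had no listed contact in any parental library, but both lie on chromosome X, which held at most 0.0108% of the read pairs of any library. Over the same libraries the sums were 117 to 147 CPM in Smc1 and 52.2 to 155 in H3K27ac for 5 markers of mature T cells, and 263 to 401 and 257 to 506 for 7 of myeloid and dendritic cells. For 5 natural killer cell markers they were 82.0 to 116 and 49.9 to 143 CPM, for 5 of thymic epithelium 131 to 153 and 99.8 to 297, and for the erythroid list 22.8 to 50.0 and 5.25 to 62.3. No gene of these lists passed the edgeR test between strains. Contacts do not measure expression, and the part of other cells in the results was not tested.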

How the data were processed

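The deposited tables list chromatin interactions of 9 HiChIP libraries; the F1 library has 1 table on each genome, which makes 10. Per the file headers, each row gives 2 anchors, their read counts, the count of read pairs (PETs) that join them, their distance, and a p-value and a q-value set by the authors' caller. The listed interactions hold at least 2 read pairs at a q-value up to 0.05, so weaker contacts are not listed and entered sums as 0. HiC-Pro, Juicer 1.7.6 and MACS are named, with build GRCm38 and no roles, per the submitters' processing notes. NOD tables were mapped on the NOD genome and shifted to reference coordinates by the authors, per the table names.

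Read pairs were summed per gene over interactions of at least 10 kb with an anchor within 5 kb of the gene body (GRCm38.p6 RefSeq). Sums were divided by the library's used read pairs for CPM and tested as counts with edgeR 4.0.16 (quasi-likelihood, TMM) in R 4.3.3 over all genes, with Benjamini-Hochberg adjustment. DESeq2 1.42.0, other normalization, filters, windows and distances, a replicate block, per-chromosome scaling and leaving out each library were alternatives. Per-chromosome scaling and the other start-site settings were chosen after seeing the data. The edgeR fit was tested on simulated counts in which 50 genes for each fold size were changed. F1 folds used a pseudocount of 5 CPM and genes with at least 50 read pairs. Tables were handled in Python 3.11.15 with pandas 2.3.3.

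Values are given for genes called, the 8 highest per antibody, the 4 highest and 4 lowest strain changes with separated libraries, and the 5 highest and 5 lowest antibody changes. Other pathway genes are named if called, or as the 3 highest and 3 lowest with separated libraries. The members and lists were chosen with earlier results of these data known. Some results are not reported here.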

Additional observations from a re-analysis of the deposited data

How the results depend on the processing

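The fitted counts of called genes were 0 in every comparison, and 80 of 86 alternatives gave 0 again. Where few or no genes are detectable, as for H3K27ac between strains, a count of 0 was nearly fixed in advance. It is then no sign of a stable result. For the F1 counts, 14 of 15 alternatives stayed within 1.5 times the reported count. Over both strains DESeq2 called 2 of the genes between antibodies, and so did scaling per chromosome. Leaving out 1 library gave 0 to 2 genes between strains in Smc1, 0 to 10 between antibodies in BL6 and 0 to 3 in NOD, against 0 with all libraries. With at least 3 read pairs per interaction, 5 of 18 genes passed 1.5-fold between the F1 and NOD, against 9 of 29. Under scaling per chromosome the log2 fold of Malt1 between antibodies reversed to 0.27. With a start-site window of 5 kb, 3 of 22 genes were separated (background 4.78%) in place of 5 (background 6.4%). Of 117 alternatives for the log2 folds of named genes, 101 kept their direction and their side of the threshold, 12 lost the call, 3 gained one and 1 reversed. The cause of these changes was not tested.

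Calls over the whole table moved more. Between strains in Smc1, 30 genes higher and 4 lower became 4 and 0 without BL6 2, 9 and 0 without BL6 1, 36 and 10 without NOD 2, 15 and 2 with no flank, 17 and 0 at gene ends and 14 and 1 with at least 3 read pairs. In H3K27ac, 0 became 20 with DESeq2 and 24 higher and 2 lower without NOD 2. Between antibodies, 23 higher and 364 lower became 320 and 1209 with DESeq2, 7 and 116 with at least 3 read pairs and 0 and 0 at gene ends, and leaving out 1 library gave 0 to 34 higher and 123 to 504 lower. Within BL6, DESeq2 called 18 and 186 against 0 with edgeR, which called 1439 and 3722 without H3K27ac BL6 2 and 262 and 974 without BL6 1. Within NOD, DESeq2 called 19 and 325, and edgeR 294 and 1627 without H3K27ac NOD 2, 40 and 389 without NOD 1, and 0 and 51 without the Smc1 library NOD 1.

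With the replicate number as a block, 0 of the genes was called in any of the comparisons. Over the whole table the block gave 41 higher and 17 lower between strains in Smc1, 28 and 14 in H3K27ac, and 17 and 265 between antibodies. Deviations of same-numbered libraries correlated across genes at 0.232 in Smc1 and 0.622 in H3K27ac, but 2 pairs do not establish a pairing, and the labels name none. The depth of the H3K27ac libraries limits the precision at genes with few read pairs there, such as Rasa1 and Tespa1.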

Other observations

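Interactions shorter than 10 kb, which entered none of the comparisons, were listed at 8 to 19 of the 34 genes in each parental Smc1 library and at 4 to 11 in each H3K27ac library. Nfatc1 had them in the most libraries, 7 of 8, with 66, 29, 20 and 0 read pairs in Smc1 and 25, 42, 7 and 23 in H3K27ac (BL6 1, BL6 2, NOD 1, NOD 2). Lat, a short gene whose scaffold protein gathers the signalling complex, had 21, 22, 30 and 32 short read pairs in Smc1, so all 4 cohesin libraries listed them, and 11 in the H3K27ac library NOD 2 alone. Grap2, which binds Lat's partner Slp76, also had them in all 4 Smc1 libraries, with 61, 84, 39 and 19 read pairs, and 13 in the H3K27ac library BL6 2.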
